A study of Gallus gallus with 18 samples.

Results

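These are 100 genes of the hen uterus whose transcripts were scarcer at the start of eggshell calcification than during its growth. As a share of library counts, in hens laying weak shells they stood, on average, near the growth level when the shell was nearly complete. They were chosen from 17108 genes with Ensembl identifiers, in a table of 20866 loci. Uterine RNA was taken from Hy-Line Brown layers aged 42 weeks. The 18 libraries form 6 groups of 3, from hens laying eggs of high or low shell strength, sampled in the initiation, growth or termination period of calcification. The labels give no treatment and no genetic difference between the groups. Whether every library is a different bird is not stated, so the spread behind the p-values is that between libraries and may be technical in part.

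The uterus, or shell gland, is the oviduct segment in which the egg receives its shell. Its epithelium moves calcium from blood to the uterine fluid with calcium-binding proteins and membrane pumps, supplies bicarbonate through carbonic anhydrases, and secretes the organic matrix on which calcite grows. Calcification starts slowly on the shell membranes, runs through a long phase of rapid deposition and ends with the cuticle before the egg is laid. The files give identifiers without names, so no member can be assigned to these roles, and the tissue and other cell types could not be checked against markers. In whole tissue, more cells of a type and more RNA per cell cannot be told apart.

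The libraries held 13322102 to 16125109 counts. A count of 3 in a library, used as a floor, corresponds to 0.186 to 0.225 CPM (counts scaled to a common library total), which covers counting error only. The high termination libraries stand apart from each other: over all loci, replicate 3 differed from replicates 1 and 2 with chi-square values of 291 and 335 per degree of freedom, against 46.9 between replicates 1 and 2. The share of G or C bases was 51.8% in high termination replicate 3, 49.3% and 50.0% in replicates 1 and 2, and 50.6% to 53.1% in low termination. The share of bases at quality 30 or above was 91.55% to 91.65% in high initiation and 94.26% to 95.15% in low initiation, without overlap. The part of base composition or base quality in the results was not tested.

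Members were chosen on group means of CPM, with counts divided by the library total. The score of a gene was the log2 ratio of the lowest mean among high growth, low growth and low termination to the highest mean among high and low initiation, after adding 1 CPM to both. Genes had to have a median below 1000 CPM over all libraries and a low termination mean between 0.67 and 1.5 times the low growth mean. High termination was left out of the score, so it is the group in which the pattern can be examined. Of 4980 genes that met both limits, 328 had a score above 0, and the 100 highest were taken.

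Scores ran from 3.22, a 9.35-fold difference, down to 0.302, a 1.23-fold difference, with a median of 0.555. Only 19 members exceeded a score of 1, which is a doubling. By score, the members thus hold a few high values and a long tail of low ones. The score sets a lowest mean against a highest mean, so it can be smaller than the average change. In the edgeR fit described below, the median log2 change from initiation to growth was 1.19 over the 99 members tested, with quartiles of 0.88 and 1.66. That change was fixed in part by the choice of members. In CPM by library total, the low termination mean was between 0.685 and 1.44 times the low growth mean. It was above the low growth mean in 47 members and below it in 53. In the edgeR fit, which scales libraries differently, the median log2 change from low growth to low termination was 0.35, against 0.02 over all loci. That change was above 0 in 81 of the 99 members and below 0 in 18. How near low termination stood to growth thus depended on the scaling. Mean levels over the 18 libraries ranged from 0.268 to 645 CPM with a median of 42.5 CPM, and 32 members had means below 10 CPM. Together the members took 0.456% to 0.561% of the counts in each initiation library and 1.11% to 1.24% in each growth library. In high termination they took 1.47%, 1.59% and 1.07% in replicates 1, 2 and 3, and in low termination 1.53%, 0.959% and 1.13%. All termination libraries were above all initiation libraries in this sum. These shares describe the choice of members, except those of high termination.

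**Figure D1:**
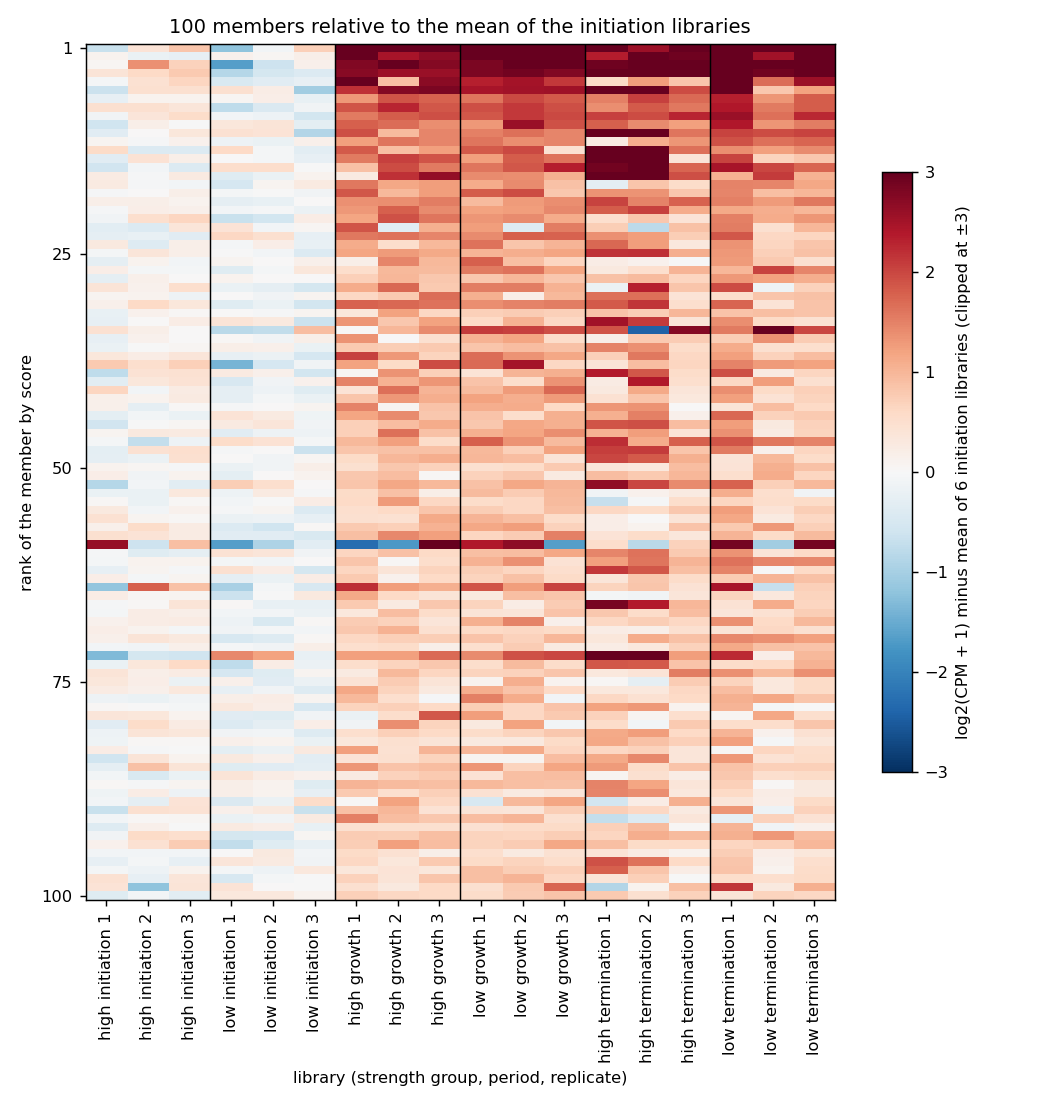
Each row is 1 of the 100 members in order of score and each column is 1 library. The colour gives log2(CPM + 1) minus the mean of the 6 initiation libraries. High termination, which the score did not use, is mostly red in all 3 libraries, with stronger red for some members in replicates 1 and 2 than in replicate 3.

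ENSGALG00000002988 had the highest score. Its lowest, median and highest levels were 3.26, 10.1 and 16.4 CPM in the 6 initiation libraries and 86.2, 125 and 224 CPM in the 6 growth libraries. It stood at 141, 57.1 and 139 CPM in high termination replicates 1 to 3, and at 98.9, 111 and 129 CPM in low termination. Every later library exceeded every initiation library by more than 3-fold. ENSGALG00000013740 had 79.2, 99.6 and 106 CPM as lowest, median and highest levels at initiation and 529.5, 795 and 981 CPM in growth. Its high termination libraries had 484, 997 and 719 CPM and its low termination libraries 1612, 547 and 1065 CPM. Growth and termination overlapped in this gene and both lay clear of initiation.

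ENSGALG00000006674 ranged over 6.11, 23.3 and 56.9 CPM (lowest, median, highest) at initiation and 150.3, 181 and 219 CPM in growth. It had 168, 181 and 332 CPM in high termination and 282, 226 and 294 CPM in low termination, so that its highest values of all came at the end of calcification. ENSGALG00000006270 had 56.0, 106 and 178 CPM at initiation and 611, 700.5 and 771 CPM in growth. Its termination levels were 967, 958 and 1053 CPM in the high and 1245, 766 and 977 CPM in the low strength group. The high termination libraries of this gene were among the closest to each other of all members, with a highest to lowest ratio of 1.10 after adding 1 CPM.

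The next members by score followed the same course with smaller steps. ENSGALG00000006156 had 40.1, 50.2 and 54.3 CPM (lowest, median, highest) at initiation, 118, 169 and 189 CPM in growth, 137, 199 and 157 CPM in high termination and 243, 119 and 171 CPM in low termination. ENSGALG00000016446 had 88.7, 168 and 214 CPM at initiation, 557, 582 and 744 CPM in growth, 399.7, 551 and 459 CPM in high termination and 809, 451 and 536 CPM in low termination. ENSGALG00000023464 had 13.3, 18.7 and 29.6 CPM at initiation, 60.5, 77.3 and 90.1 CPM in growth, 86.7, 80.7 and 101 CPM in high termination and 125, 64.9 and 99.2 CPM in low termination. In these genes no growth or termination library reached down to the initiation range. ENSGALG00000012027 also kept all later libraries above initiation, where its highest level was 61.7 CPM, with a lowest level of 117 CPM in growth, 111 CPM in high termination and 119 CPM in low termination.

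A different shape was seen in 2 of the 10 members with the highest scores. ENSGALG00000010772 was at 2.24, 3.04 and 5.93 CPM at initiation and 7.29, 22.7 and 38.1 CPM in growth, and at 48.4, 13.1 and 25.3 CPM in low termination. Its high termination libraries had 5.58, 9.60 and 6.86 CPM, of which the first lay within the initiation range. ENSGALG00000023069 did the opposite. It had at most 7.40 CPM at initiation and 26.5 to 41.5 CPM in growth, while its high termination libraries reached 361, 163 and 22.1 CPM and its low termination libraries 48.6, 9.40 and 12.7 CPM. The largest values of this gene therefore came from replicates 1 and 2 of high termination.

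**Figure D2:**
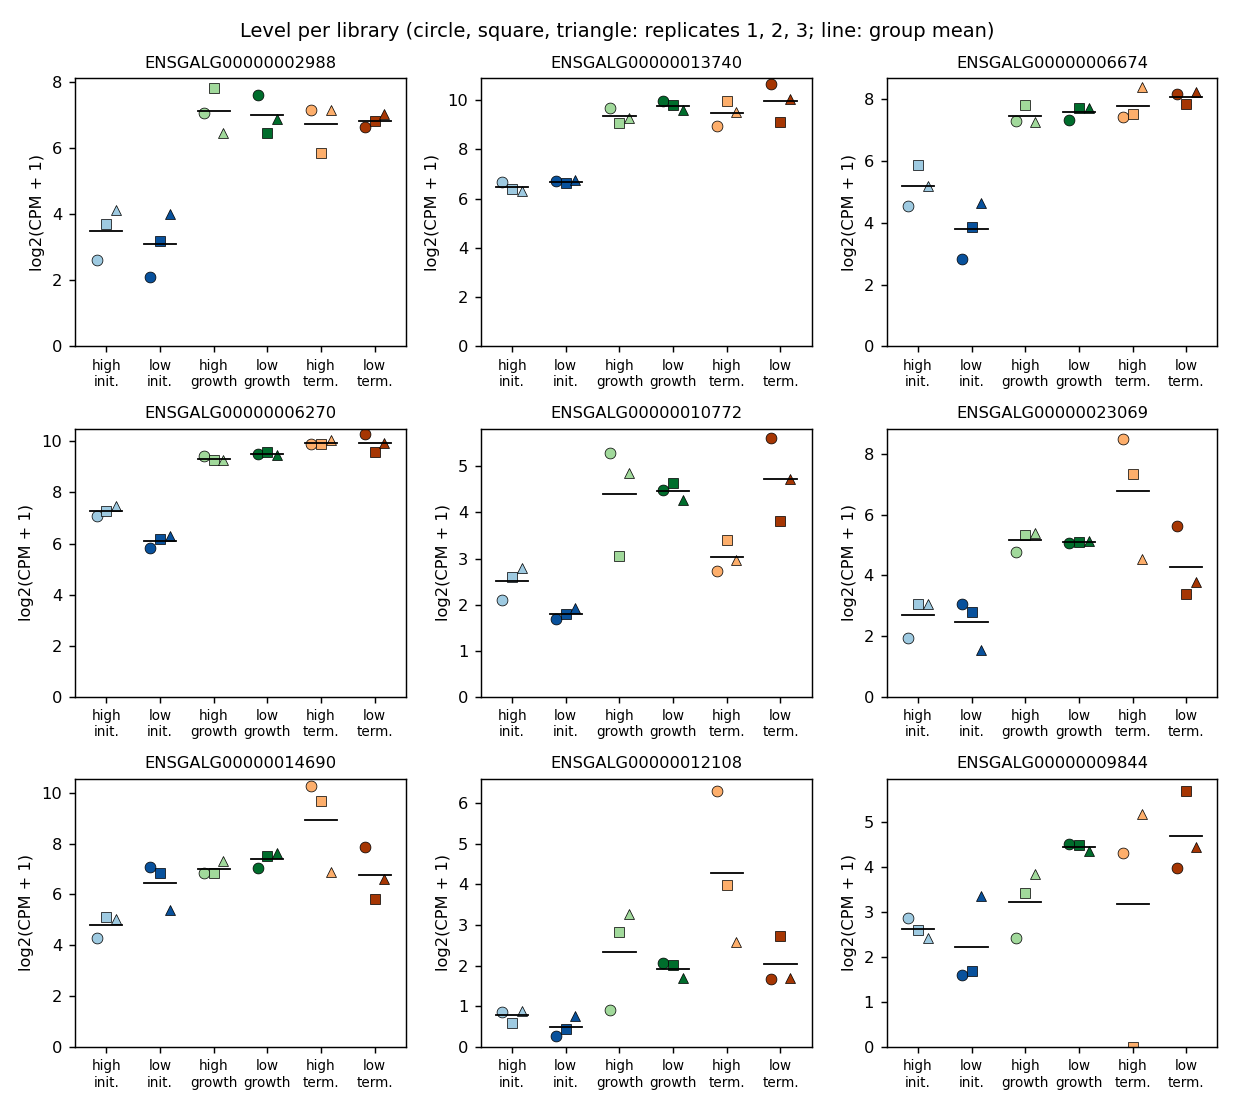
Level of 9 members as log2(CPM + 1) on the vertical axis, by group, with 1 symbol per library and a line at the group mean. ENSGALG00000002988, ENSGALG00000013740, ENSGALG00000006674 and ENSGALG00000006270 stay high in both termination groups, whereas ENSGALG00000023069, ENSGALG00000014690 and ENSGALG00000012108 are highest in high termination replicate 1.

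The members with the highest mean CPM, a measure that also grows with transcript length, were ENSGALG00000014913, ENSGALG00000006270, ENSGALG00000013740, ENSGALG00000003147 and ENSGALG00000008469. Among these, ENSGALG00000014913, ENSGALG00000003147 and ENSGALG00000008469 had lower scores of 0.727, 0.371 and 0.324. ENSGALG00000014913 was at 196, 286 and 438 CPM (lowest, median, highest) at initiation and 760, 862 and 982 CPM in growth. It had 1029, 1276 and 410 CPM in high termination and 964, 381 and 517 CPM in low termination. High termination replicate 3 and low termination replicate 2 of this gene lay within the initiation range. ENSGALG00000003147 had 282 to 481 CPM at initiation, 518 to 639 CPM in growth, 810, 880 and 557 CPM in high termination and 743, 402 and 504 CPM in low termination. ENSGALG00000008469 had 267 to 412 CPM at initiation, 406 to 554 CPM in growth, 1195, 987 and 486 CPM in high termination and 571, 352 and 452 CPM in low termination. In both of these genes low termination replicate 2 lay within the initiation range, and in ENSGALG00000008469 the growth and initiation ranges overlapped.

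High termination asked whether the members were also raised at the end of calcification in hens laying strong shells. Over the members, 74, 80 and 76 of 100 were above all 6 initiation libraries in high termination replicates 1, 2 and 3. Of all 16110 loci tested, 27.4%, 27.1% and 13.6% were above all initiation libraries in the same libraries. All 3 high termination libraries were above all 6 initiation libraries in 55 members, against 3.63% of all loci tested, and in 65 members against 22.8% when replicate 3 was left out. No high termination library exceeded all initiation libraries in 4 members, 1 did in 17 and 2 did in 24. The initiation means were kept low by the choice of members, which favours such counts.

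On a scale of log2(CPM + 1) with 0 at the mean of the initiation libraries and 1 at that of the growth libraries, the median member stood at 1.01, 1.01 and 0.81 in high termination replicates 1, 2 and 3. The quartiles were 0.41 and 1.75 in replicate 1, 0.61 and 1.87 in replicate 2, and 0.44 and 1.22 in replicate 3. In these libraries 38, 36 and 50 of the 100 members lay within the range of the 6 growth libraries. Above all growth libraries were 34, 38 and 13, and below all of them 28, 26 and 37. Of the 16110 loci tested, 8509, 9197 and 3779 lay within the growth range, 3339, 2942 and 4624 above it, and 4262, 3971 and 7707 below it. The share within was thus smaller for members than for all loci in replicates 1 and 2, and larger in replicate 3. The shares below were close in replicates 1 and 2. In low termination the median member stood at 1.22, 0.75 and 0.88. With libraries scaled by trimmed mean of M values (TMM), which corrects for a few loci taking a larger share of a library, the high termination values were 1.07, 1.08 and 1.14 and the low termination values 1.42, 1.30 and 1.32. Replicate 3 thus went from the lowest to the highest of the high termination libraries with this scaling. The 100 genes with the highest growth score whose low termination mean was below 0.67 times low growth give a contrast, and were 97, 98 and 17 of 100 above all initiation libraries in high termination replicates 1, 2 and 3. The difference between these lists was not tested, and the lists were built to differ in low termination.

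**Figure D3:**
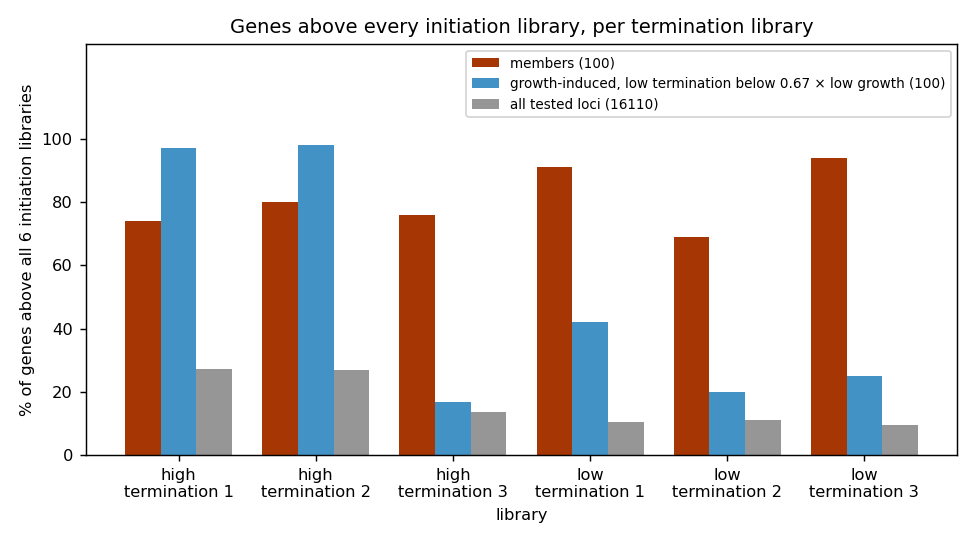
Percentage of genes whose level in a termination library exceeded all 6 initiation libraries, for the members, for growth-induced genes with low termination below 0.67 times low growth, and for all 16110 loci tested. In high termination replicate 3 the share was 76% of the members, 17% of the other growth-induced genes and 13.6% of all loci. The low termination bars are fixed in part by how both lists were chosen.

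Changes were then tested across all 16110 loci with edgeR's quasi-likelihood test on TMM-scaled counts, with p-values adjusted by Benjamini-Hochberg over all loci and a threshold of 0.05. Of the members 99 were abundant enough to test. The other, ENSGALG00000007184, had at most 11 counts in any library. From high initiation to high termination, 62 of 99 members rose and 0 fell, where 13.8% of all loci rose and 8.45% fell. The high initiation mean was used in choosing the members, so these calls are not independent of the choice on that side. The median log2 change of the members was 1.20, with quartiles of 0.74 and 1.89, against 0.06 over all loci. Without high termination replicate 3 the count was again 62, of which 61 were the same genes, with 51.9% of all loci called in either direction. In a fit to the 6 libraries of these groups alone, 27 of 94 members were called, all higher, and 3.05% of all loci. With limma-voom 67 of 99 members were called, all higher, beside 63.3% of all loci in either direction.

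The leading members by score were among those that rose in this comparison. Changes are given on the log2 scale with their standard errors (SE). ENSGALG00000006270 changed by 2.90 ± 0.21 (SE, edgeR adjusted p = 1.86e-06). ENSGALG00000013740 changed by 3.28 ± 0.34 (SE, edgeR adjusted p = 2.05e-05). ENSGALG00000002988 changed by 3.59 ± 0.61 (SE, edgeR adjusted p = 0.00104). All 3 high termination libraries of each gene were above its high initiation libraries, and each call held in all 13 alternatives tried. ENSGALG00000010772 was not called, with a change of 0.84 ± 0.49 (SE, edgeR adjusted p = 0.232). The largest estimated changes belonged to genes with uneven high termination libraries. ENSGALG00000012108 changed by 5.60 ± 1.005 (SE, edgeR adjusted p = 0.00148), from 0.826, 0.502 and 0.857 CPM at high initiation to 78.1, 14.9 and 4.96 CPM. ENSGALG00000023069 changed by 5.10 ± 0.81 (SE, edgeR adjusted p = 5.98e-04). ENSGALG00000014690 changed by 4.85 ± 0.67 (SE, edgeR adjusted p = 2.09e-04), from 18.6, 33.3 and 31.8 CPM to 1229, 825 and 117 CPM, while low initiation stood at 133, 113 and 41.3 CPM. The calls of ENSGALG00000012108 and ENSGALG00000023069 were each lost in 1 of 13 alternatives.

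Among the 37 members without a call were 2 with an estimate below 0, named after their values were seen. The log2 change of ENSGALG00000014252 was −1.19 ± 1.57 (SE, edgeR adjusted p = 0.626). It varied more than 100-fold between libraries of 1 group, at 0.218, 0.802 and 74.03 CPM in the high growth group, 30.1, 36.8 and 0.877 CPM in the low growth group and 35.1, 2.87 and 10.1 CPM at high initiation. Its high growth mean of 25.02 CPM came almost wholly from replicate 3. The log2 change of ENSGALG00000028090 was −0.10 ± 0.82 (SE, edgeR adjusted p = 0.943), with 0.450, 10.4 and 5.07 CPM at high initiation and 4.22, 4.83 and 3.46 CPM in high termination.

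Compared with high growth, 17 of 99 members were higher in high termination and 0 were lower, where 4.61% of all loci were higher and 3.05% lower. High growth was also used in the score, which kept it high. The median log2 change of the members was 0.23, against 0.05 over all loci. Among these, ENSGALG00000014690 gave the largest change at 2.59 ± 0.60 (SE, edgeR adjusted p = 0.0159), from 115, 115 and 158 CPM in high growth. ENSGALG00000012683 changed by 2.49 ± 0.61 (SE, edgeR adjusted p = 0.0208), from 1.16, 0.510 and 1.18 CPM to 8.04, 5.52 and 1.502 CPM. ENSGALG00000023069 changed by 2.46 ± 0.71 (SE, edgeR adjusted p = 0.0470). The calls of ENSGALG00000014690, ENSGALG00000012683 and ENSGALG00000023069 were lost in 4, 5 and 8 of 13 alternatives. The fit to the 6 libraries of these groups called 0 of 95 members and 1 of all loci tested (edgeR adjusted p). DESeq2 called 25 higher and 4 lower, beside 13.3% of all loci in either direction. In ENSGALG00000012683 and ENSGALG00000014690 replicate 3 was the lowest of the high termination libraries by more than 3-fold, and in ENSGALG00000023069 it lay below all 3 high growth libraries. With scaling to total counts the test called 4 members higher and 3 lower, close to the 7.05% of all loci called. The median over all loci moved to −0.12. The count was 7, 6 and 7 without high growth replicates 1, 2 and 3, beside 4.41%, 4.42% and 4.65% of all loci. It was 8 without high termination replicate 1, beside 7.21%, and 26 without replicate 3, beside 7.43%.

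Between the strength groups at termination, 5 of 99 members were higher in hens with strong shells and 11 were lower, where 12.2% of all loci were higher and 1.92% lower. The share of members called, 16.2%, was close to the 14.2% of all loci. The median log2 difference, high minus low, was −0.28 over the members and 0.00 over all loci. Low termination was kept high by the choice of members, which favours lower values in high termination. ENSGALG00000012108 was the furthest above, at 2.86 ± 0.86 (SE, edgeR adjusted p = 0.0417), with 2.18, 5.68 and 2.22 CPM in low termination. ENSGALG00000023069 differed by 2.70 ± 0.72 (SE, edgeR adjusted p = 0.0310). ENSGALG00000014690 differed by 2.24 ± 0.59 (SE, edgeR adjusted p = 0.0309), with 231, 55.2 and 95.9 CPM in low termination. For all 3 genes high termination replicate 3 lay within the low termination range.

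Of those that were lower in the high strength group, ENSGALG00000010772 differed by −2.18 ± 0.50 (SE, edgeR adjusted p = 0.0271), and its high and low termination libraries did not overlap. ENSGALG00000002459 differed by −1.59 ± 0.51 (SE, edgeR adjusted p = 0.0496), at 0.545, 2.38 and 1.76 CPM against 4.29, 4.26 and 3.22 CPM, again with no overlap. ENSGALG00000006812 differed by −1.48 ± 0.47 (SE, edgeR adjusted p = 0.0483), at 1.63, 2.07 and 3.40 CPM against 3.34, 7.84 and 4.97 CPM, and overlapped. No member was called without high termination replicate 1 or 2 or low termination replicate 2 or 3. In those fits at most 0.0932% of all loci were called. Without high termination replicate 3, 49 members and 57.4% of all loci were called. With scaling to total counts 12 members were higher and 3 lower, 8 of them among the 16. In that fit 20.4% of all loci were called in either direction. The median log2 difference moved to −0.02 over the members and to 0.26 over all loci. The members thus stayed below all loci, but near 0 themselves.

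**Figure D4:**
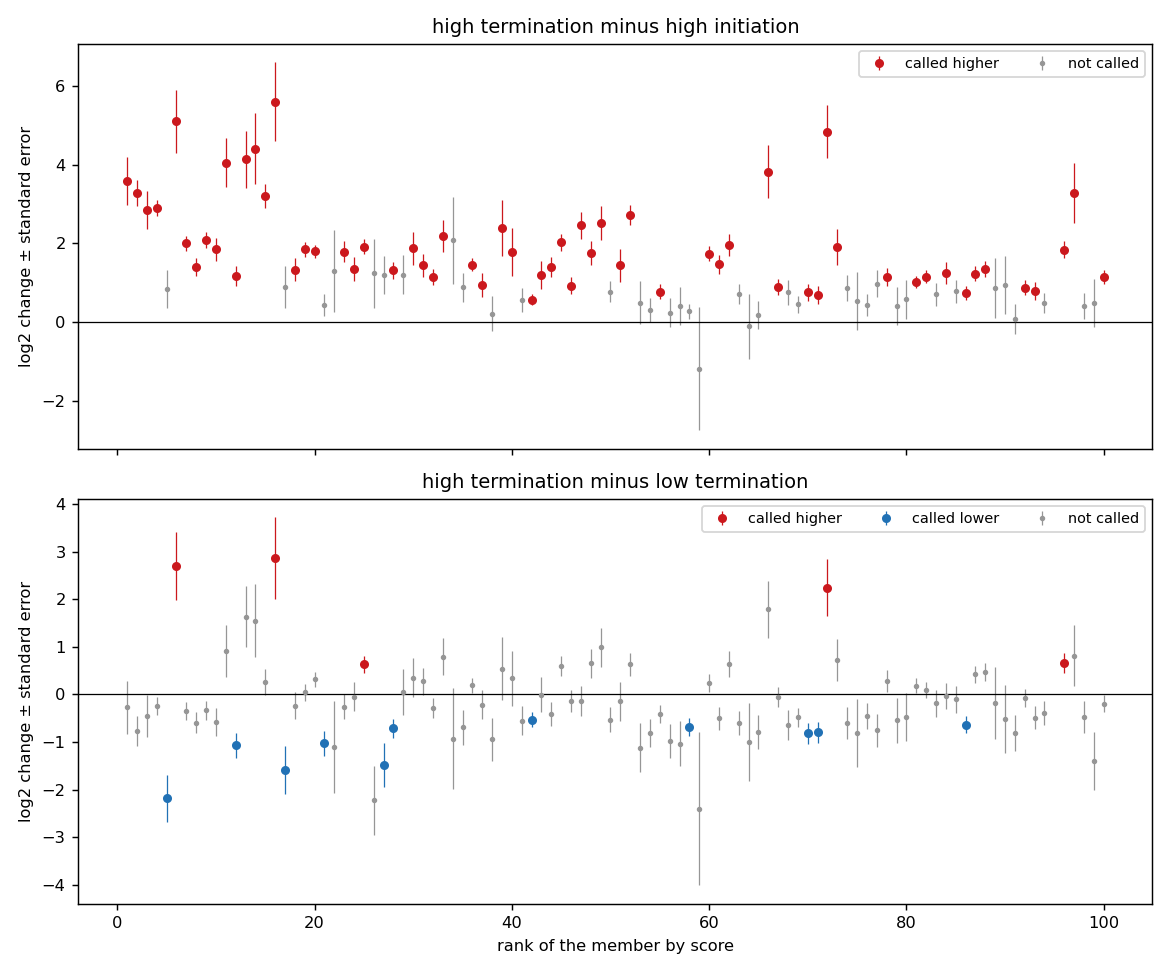
Log2 change with its standard error (vertical axis) of the 99 tested members in order of score (horizontal axis), for high termination minus high initiation above and minus low termination below. In the upper panel 62 members are called higher and 0 lower. In the lower panel 5 are higher and 11 lower, spread over the ranks.

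The strength groups were also compared before termination. All 4 group means in these comparisons entered the score, through the lower growth mean and the higher initiation mean, which favours genes on which the strength groups are alike, so the counts are a description. In growth 0 of 99 members were called, where 0.00621% of all loci were higher and 0% lower (edgeR quasi-likelihood test). An unadjusted p below 0.05 was found for 1 of 99 members and 374 of 16110 loci. DESeq2 and limma-voom also called 0 members. The median absolute log2 difference in growth was 0.16 over the members, with a median standard error of 0.30, and 0.13 over all loci. At initiation it was 0.37 over the members and 0.35 over all loci, so the members were not closer between the strength groups than loci in general. At initiation 4 members were higher in the high strength group and 0 lower, against 3.04% and 4.93% of all loci. In either direction 4.04% of members and 7.97% of all loci were called. DESeq2 called 12 higher and 2 lower, the fit to the 6 libraries of these groups 9 higher and 3 lower of 89 tested. With limma-voom 44 were higher and 10 lower. Of all loci these called 12.9%, 14.3% and 61.5% in either direction, so the member counts in either direction were near the shares of all loci. By sign, the members leaned towards the high strength group at initiation. The median log2 difference there, high minus low, was 0.20 over the members and 0 over all loci in the edgeR fit. It was above 0 in 72 members and below 0 in 27, against 49.8% of all loci above 0. In growth the median over the members was −0.09, with 36 above 0 and 63 below.

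ENSGALG00000006270 was the clearest of these. It had 134, 156 and 178 CPM in high initiation and 56.0, 71.1 and 76.9 CPM in low initiation, a log2 difference of 1.25 ± 0.20 (SE, edgeR adjusted p = 9.60e-04). It kept the call in all 13 alternatives. High initiation was 2.29 times low initiation in this gene, whereas its high growth mean was 0.870 times that of low growth. ENSGALG00000016975 had 8.78, 11.3 and 14.1 CPM in high initiation and 4.41, 5.97 and 6.70 CPM in low initiation, a log2 difference of 1.04 ± 0.26 (SE, edgeR adjusted p = 0.0198). ENSGALG00000016446 differed by 0.91 ± 0.22 (SE, edgeR adjusted p = 0.0192), at 214, 212 and 196 CPM against 88.7, 112 and 141 CPM. The high and low initiation libraries of these genes did not overlap, although the calls of ENSGALG00000016975 and ENSGALG00000016446 were each lost in 4 of 13 alternatives. The count of members called at initiation was 2 without high initiation replicate 2, beside 4.67% of all loci. It was 1 without low initiation replicate 1 or 2, beside 2.85% and 3.49%, and 9 without low initiation replicate 3, beside 7.47%.

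The change from growth to termination was also compared between the strength groups directly. Both growth means and the low termination mean entered the score, and the low termination to low growth ratio was limited to the window. High termination entered the choice only through the limit on the median over all libraries. For 0 of 99 members, and 0.0248% of all loci, did this difference pass the edgeR test. An unadjusted p below 0.05 was found for 15 of 99 members and 3252 of 16110 loci, a smaller share of the members than of all loci. DESeq2 called 3 members and 3.4% of all loci. Without high termination replicate 3 the edgeR test called 26 members, 15 with a larger rise in the high strength group and 11 with a smaller one, and 43.5% of all loci.

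The libraries of a group differed most in high termination. The median SD between libraries of log2(CPM + 1) over the members was 0.46 in that group and 0.35 in low termination, against 0.20 to 0.28 in the initiation and growth groups. Over all loci tested the corresponding values were 0.50, 0.30 and 0.19 to 0.25. High termination replicate 3 was more than 2-fold below both other libraries in 18 members and above both in 1, against 22.4% and 10.1% of all loci. ENSGALG00000009844 had the widest spread, with 18.9 CPM in replicate 1, no counts in replicate 2 (a floor of 0.188 CPM) and 35.3 CPM in replicate 3. The 15 libraries of the other groups had between 2.04 and 50.1 CPM of this gene. ENSGALG00000012010 stood at 10.8, 11.1 and 0.653 CPM in high termination, at 4.15, 1.01 and 1.21 CPM in low termination and at most 0.717 CPM at initiation. At the other end, ENSGALG00000007608 had 7.90, 8.60 and 7.84 CPM and ENSGALG00000006555 had 29.7, 26.6 and 29.2 CPM in high termination, each above its highest initiation value, 5.78 and 22.5 CPM.

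The members also differed in where low termination stood in the allowed window. The highest ratios to low growth were 1.44 in ENSGALG00000006757 and 1.43 in ENSGALG00000010091 and ENSGALG00000005060. ENSGALG00000006757 had at most 2.04 CPM at initiation, 3.28 to 7.48 CPM in growth, 8.03, 7.57 and 7.93 CPM in low termination and 27.9, 22.7 and 5.75 CPM in high termination. ENSGALG00000010091 had 284, 215 and 283 CPM in low termination and 135, 145 and 316 CPM in high termination, of which replicate 1 lay within its initiation range of 75.8 to 142 CPM. ENSGALG00000005060 had 204, 180 and 176 CPM in low termination and 153, 198 and 132 CPM in high termination, all above the 69.8 CPM that was its highest at initiation. The lowest ratios, 0.685 to 0.693, were those of ENSGALG00000014140, ENSGALG00000026075 and ENSGALG00000002963. In ENSGALG00000014140 the termination libraries had 346, 282 and 158 CPM in the high and 203, 126 and 151 CPM in the low strength group, beside at most 139 CPM at initiation. ENSGALG00000002963 had 18.5, 16.9 and 11.5 CPM in high and 26.3, 10.6 and 10.7 CPM in low termination, above its highest initiation value of 10.5 CPM. ENSGALG00000026075 was near the floor, with at most 3.13 CPM in any library.

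At the edge of the list the scores were small. The last members, ENSGALG00000016112 and ENSGALG00000008741, had scores of 0.306 and 0.302, and the next genes outside, ENSGALG00000006565 and ENSGALG00000007908, had 0.299 and 0.295. ENSGALG00000008741 had 23.6 to 38.4 CPM at initiation, 45.0 to 55.9 CPM in growth, 52.9, 42.6 and 49.4 CPM in high termination and 39.8, 48.8 and 47.0 CPM in low termination, without overlap with initiation. ENSGALG00000016112 overlapped, with 1.43 to 6.45 CPM at initiation and 2.04, 5.02 and 9.54 CPM in high termination. ENSGALG00000006565, just outside, had at most 5.57 CPM at initiation and 12.3, 6.96 and 10.1 CPM in high termination. Of the 100 members, 63 had all 6 growth libraries above all 6 initiation libraries. Both periods entered the score, so this count describes the choice of members, and the share of all loci is not given here.

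The score was also computed in libraries that had no part in a choice of genes. It used the same 5 groups as the rule, and the window of low termination to low growth was not checked in those libraries. When replicate 1, 2 or 3 of every group was left out and 100 genes were chosen from the others, 63, 65 and 70 of them were members. In the left-out libraries 71, 58 and 77 of the 100 chosen genes had a score above 0, against 5.13%, 3.39% and 4.59% of all genes within the same limits. Their median score in the left-out libraries was 0.22, 0.15 and 0.33, against 0.49, 0.67 and 0.59 in the libraries used to choose them. The median score was thus above 0 in the left-out libraries in each repeat, and below that in the libraries used for choosing.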

How the data were processed

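Per the labels' protocols, RNA was extracted by Trizol and an Illumina TruSeq kit was used for the libraries. The authors deposited counts per locus for 18 libraries. Bowtie2, TopHat, TopHat2 and galGal4 appear in the submitters' processing notes. For the counter, strand setting and annotation nothing is stated in the sources used here. Paralogs, overlapping and antisense genes are therefore uncertain. The table is named as normalized, but 0 values were fractional and totals differed, so it was treated as counts; rounding after scaling by factors near 1 could go unseen. In the deposited read statistics the authors gave counts of clean read pairs and the percents of G or C bases and of bases at quality 30 or above. The percents of mate 1 were used. The RefSeq table holds no Ensembl identifiers, so no identifier was named, the marker and pathway lists fixed by symbol were not used, and no sequence is shown.

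The members and lists were chosen with earlier results of these data known. Loci above 1 CPM in at least 3 libraries entered edgeR 4.0.16 under R 4.3.3 with limma 3.58.1, using TMM factors and a mean for each of the 6 groups. All groups shared the spread of a locus. Standard errors were taken as the size of the log2 change over the root of F. Levels are CPM by library total, tests use TMM. Libraries of 1 group differed beyond counting noise in every pair (chi-square per degree of freedom 9.0 to 335), so none was merged. On simulated data, high termination against high initiation recovered 10 of the 100 genes altered 2-fold and 65 of the 100 altered 4-fold. In that table of 16110, 2 unaltered genes were called. The simulation gave a locus the same spread in every group and no library that stood apart. It therefore does not give the error rate in the real high termination libraries, which differed more from each other. The alternatives were DESeq2 1.42.0, total-count and upper-quartile scaling, no filter, the replicate block, limma-voom with quality weights, fits to 6 libraries, leaving out each library, and other forms of the rule. Leaving out libraries or scaling by TMM when counting members above all initiation libraries was added after seeing the data. Python 3.11.15 and pandas 2.3.3 were used for the tables.

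Named genes were the 10 highest scores, the 5 highest mean CPM, up to 3 called per comparison and direction by size, the 5 widest and 3 narrowest in high termination, the 3 highest and 3 lowest ratios of low termination to low growth, and ranks 99 to 102.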

Additional observations from a re-analysis of the deposited data

How the results depend on the processing

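The choice of members depended on scaling and on single libraries. Of the 100 members, 45 were chosen with TMM-scaled CPM and 61 with a window of 0.5 to 2 around low growth. Between 63 and 70 were chosen without 1 replicate number, and 79 to 97 under the other forms of the rule. With TMM-scaled CPM the median position of high termination replicate 3 was 1.14. The count of members with every high termination library above initiation was 71 with TMM and 60 to 65 without 1 library, against 55. With all libraries and no TMM the share of all loci was 3.63%. Leaving out a library eases this criterion for every locus, so the higher counts are not a result about the members. The share of all loci with TMM is not given here. For high termination against high initiation, DESeq2 called 68 members, total-count scaling 51 and limma-voom 67, all higher. Over all loci the shares were 29.6%, 22.6% and 63.3% in either direction. With limma-voom the share of members called was thus near that of all loci. The fit to 6 libraries called 27 members and 3.05% of all loci. Leaving out 1 library gave 54 to 62 members and 12.4% to 51.9% of all loci. For high termination against low termination, limma-voom called 71 members and 69.9% of all loci. The fit to 6 libraries called 0 members at adjusted p, with 0 of all loci. Leaving out 1 library gave 0 to 49 members and 0.0124% to 57.4% of all loci. For high termination against high growth, DESeq2 called 29 (25 higher, 4 lower), total-count scaling 7 and limma-voom 37 (30 higher, 7 lower). Of all loci these called 13.3%, 7.05% and 13.4%. The fit to 6 libraries called 0 members and 0.00675% of all loci. Leaving out 1 library gave 6 to 26 members and 4.41% to 13.6% of all loci. For high against low initiation, DESeq2 called 14 (12 higher, 2 lower), limma-voom 54 (44 higher, 10 lower) and the fit to 6 libraries 12 (9 higher, 3 lower). Of all loci these called 12.9%, 61.5% and 14.3%. Leaving out 1 library gave 1 to 9 members and 2.85% to 7.47% of all loci. For the strength difference in the change from growth to termination, DESeq2 called 3 members and 3.4% of all loci. Leaving out 1 library gave 0 to 26 members and 0% to 43.5% of all loci. The cause of these shifts was not tested. No named call changed direction under any alternative. In no tested pair of groups did all 3 same-numbered pairs of libraries deviate together from their group means with correlations above 0.1. The range over all pairs of groups was −0.427 to 0.737. Low initiation and high termination had 0.544, 0.479 and 0.737. No test compared these 2 groups directly. The counts above all 6 initiation libraries and the position scale did set high termination against initiation libraries that include low initiation. With the replicate block 60, 12 and 14 members were called for high termination against high initiation, low termination and high growth. It called 5 and 0 for strength at initiation and in growth, and 0 for the strength difference in change. Of all loci it called 20.3%, 12.6%, 6.95%, 7.83%, 0% and 0% in that order. At a mean below 10 CPM, as in 32 members, counting error adds to the spread.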

Other observations

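The rule took only Ensembl genes. Of the 3758 loci that the authors numbered outside that annotation, 1228 met the same limits, and 51 had a score at or above that of the last member. Novel03295, named after its values were seen, would have led the list, with a score of 4.42. It had 0.136 to 0.947 CPM in the 6 initiation libraries, 22.7, 29.2 and 40.5 CPM in high growth and 35.5, 52.0 and 26.6 CPM in low growth. Low termination was at 22.6, 45.3 and 30.6 CPM, and high termination, at 8.45, 12.1 and 11.2 CPM, lay above initiation and below growth in all 3 libraries. Novel01642, with a score of 3.30, had at most 1.64 CPM at initiation and 13.5, 39.5 and 15.1 CPM in high termination, beside 50.8, 25.6 and 24.1 CPM in low termination.

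The upper limit of 1000 CPM kept out 3 genes that would otherwise have ranked among the 100.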
